A study of Mus musculus with 6 samples.

Results

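The genes described here encode STAT3, the receptor chains of the cytokines that signal to it or to the related STAT6, and the feedback inhibitors SOCS1 and SOCS3. They are Stat3, Socs1, Socs3, Il6ra, Il6st, Osmr, Il4ra, Il13ra1, Il20ra and Il22ra1. They were taken as a named pathway set, all 10 whatever their values, with earlier results of these data known. All probes that the platform annotation assigns to these 10 genes were taken, 19 of the 45281 probes on the array. Of these, 11 probes of 7 genes were detected on at least 3 of the 6 arrays (detection p under 0.05), as were 18358 probes in all. Only these entered the test. Every probe of Socs1, Il4ra and Il22ra1 fell below that limit.

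The arrays compared back-skin epidermis of mouse embryos of strain C57BL6 at E17.5, peeled off after 1 hour in 5 mM EDTA at 37 °C. One group consisted of 3 samples from a Harlequin Ichthyosis model, called mutant here, and the other of 3 wild-type samples. Harlequin Ichthyosis is a severe inherited disorder of cornification in which the skin barrier fails, and the series profiles what changes in its epidermal transcripts before birth. The labels name neither the mutated gene nor the allele, and they number the samples of a group as biological replicates without saying whether a sample is 1 embryo or a pool. The sample titles carry a prefix, bo20 for arrays 1 and 2 of each group and bo12 for array 3 of each group, and the labels do not say what the prefix stands for.

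Cytokines of the interleukin-6 family bind a private receptor chain and the shared chain gp130, encoded by Il6st. Janus kinases bound to the receptors then phosphorylate STAT3, which enters the nucleus and switches on genes that include its own inhibitor Socs3. Oncostatin M, interleukin-20, interleukin-22 and interleukin-24 use the same route in keratinocytes, where it is known for its part in wound repair and in the thickened epidermis of psoriasis. Interleukin-4 and interleukin-13 act through IL4RA and IL13RA1 and mainly through STAT6.

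Mean raw intensity was 390 to 463 on the mutant arrays and 260 to 398 on the wild-type arrays, so values were background-corrected and quantile-normalized before any comparison and are given as normalized log2 intensity. Wild-type array 3 stood apart, with Pearson's r of 0.836 to 0.891 to the other arrays across detected probes, against 0.965 to 0.990 among the other 5. The results on the 10 genes are therefore given with it and, where the probe could still be tested, without it. Of 12 keratinocyte markers, 11 were detected, among them the basal keratins Krt5 and Krt14. The material also held RNA of other tissue, with all 10 dermal fibroblast markers, all 8 endothelial markers and all 8 skeletal muscle markers detected. A level on these arrays belongs to the whole peel, and fewer cells of a type cannot be told apart from less RNA per cell.

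None of the 11 detected probes of these genes differed between mutant and wild-type epidermis at an adjusted p of 0.05 in limma. The same held for all 18358 detected probes, of which 0 (0%) passed, and the smallest adjusted p was 0.0818. At an unadjusted p under 0.05 the count was 0 of 11, beside 5.87% of all detected probes. In 0 of 11 probes did the mutant and wild-type values lie fully apart, beside 13.3% of all detected probes. Of the 11 log2 differences, mutant minus wild type, 5 were above 0 and 6 below, with 46.1% above 0 over all detected probes. Without wild-type array 3, 0 of the 10 probes that could be tested passed, beside 49 of 17808 probes (0.275%). Of these 10, which came from 6 genes, 9 differences were then above 0, compared with 51% of all probes. At an unadjusted p under 0.05 there were 2 of the 10, both higher in mutants, beside 5.89% of all probes in that direction, and 0 lower, beside 3.85%. They were Il13ra1 and Stat3 probe ILMN_3096144, while the other 2 Stat3 probes had an unadjusted limma p of 0.129 and 0.148. The 10-gene set also gave 0 calls with the title prefix as a factor, where 0.261% of all probes passed, with array weights (0.703%), in the authors' table (0.0327%) and without background correction (0.00545%).

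**Figure D1:**
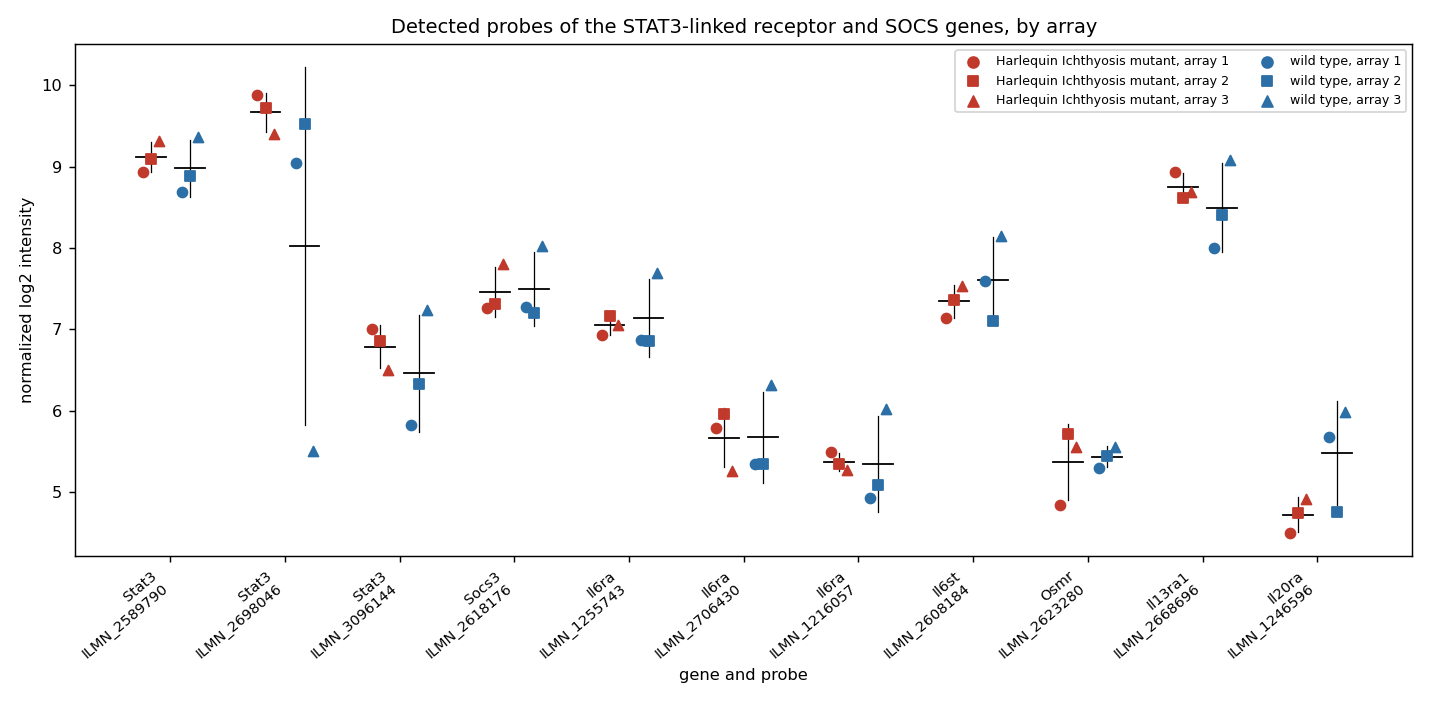
Normalized log2 intensity of the 11 detected probes on each array. Red points are mutant arrays and blue points wild-type arrays, marker shape gives the array number, horizontal bars are group means and vertical lines 1 SD (n = 3). The groups overlap for every probe, and wild-type array 3 is the lowest point for Stat3 probe ILMN_2698046 at 5.50.

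Stat3 encodes the transcription factor on which most of these receptors converge, and its 3 probes were all detected on all 6 arrays. The brightest by mean, ILMN_2589790, read 8.94, 9.10 and 9.31 in mutants and 8.69, 8.88 and 9.37 in wild type. The ranges overlapped, with wild-type array 3 the highest of all. The difference was 0.14 (SE 0.25, limma adjusted p = 0.870), a 1.10-fold level with a 95% interval of 0.728 to 1.66. It was 0.33 (SE 0.19, adjusted p = 0.664) without wild-type array 3.

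A second Stat3 probe, ILMN_2698046, annotated to the same transcript record, read 9.88, 9.72 and 9.40 in mutants and 9.04, 9.53 and 5.50 in wild type. Wild-type array 3 deviated by -4.03 from the median of the other arrays here, whereas on the other Stat3 probes the same array deviated by 0.43 and 0.74. The difference with all arrays was 1.64 (SE 0.98, limma adjusted p = 0.791) and its 95% interval ran from -0.66 to 3.95. Without wild-type array 3 it was 0.38 (SE 0.23, adjusted p = 0.686), so this 1 array carried most of the value. On every other array this probe read higher than ILMN_2589790, the probe that stands for Stat3 in the gene lists. Over all detected probes, 258 (1.41%) lay more than 4 log2 units below the other arrays on wild-type array 3.

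The third Stat3 probe, ILMN_3096144, is annotated to another transcript record of the gene. It read 7.01, 6.86 and 6.50 in mutants and 5.82, 6.33 and 7.24 in wild type. Wild-type array 3 was the highest of the 6 and wild-type array 1 the lowest. The difference was 0.33 (SE 0.38, limma adjusted p = 0.805). Leaving out wild-type array 3 made it 0.72 (SE 0.24), 1.65-fold, with an unadjusted p of 0.0200 in limma and an adjusted p of 0.400. Leaving out wild-type array 1 instead gave 0.0042. Within bo20 the 3 probes gave 0.24, 0.51 and 0.86 in the order described, and within bo12, where each group has 1 array, -0.06, 3.90 and -0.74.

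**Figure D2:**
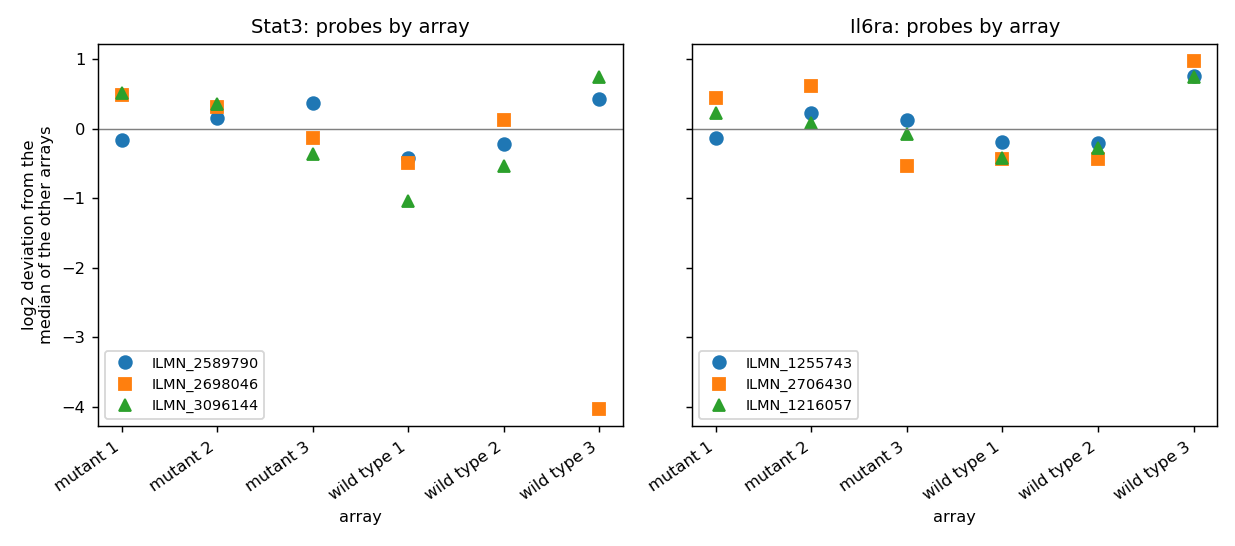
Deviation of each array from the median of the other 5, in log2 units, for the 3 probes of Stat3 (left) and of Il6ra (right), with mutant arrays left of wild-type arrays. On wild-type array 3 the Stat3 probes span 4.77, with ILMN_2698046 at -4.03, while the Il6ra probes span 0.22.

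The plot of deviations by array shows how far probes of 1 gene agreed. The Stat3 probes spanned 0.19 to 0.73 log2 units on the 3 mutant arrays, against 0.62, 0.66 and 4.77 on wild-type arrays 1 to 3. Such disagreement was not special to Stat3: among 3551 genes with several detected probes, 678 (19.1%) had probes more than 2 log2 units apart on wild-type array 3, compared with 33 (0.929%) on mutant array 3 and at most 9 on any other. The 3 Il6ra probes stayed within 0.66 of each other on every array, and all 3 lay above the other arrays on wild-type array 3.

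Il6ra encodes the private receptor for interleukin-6. Its brightest probe, ILMN_1255743, read 6.93, 7.17 and 7.06 in mutants and 6.87, 6.86 and 7.69 in wild type. The mutant values lay between wild-type arrays 1 and 2 below and wild-type array 3 above. The difference was -0.08 (SE 0.28, limma adjusted p = 0.927), with a 95% interval of 0.595-fold to 1.50-fold. Probe ILMN_2706430 read 5.79, 5.96 and 5.26 in mutants and 5.35, 5.35 and 6.32 in wild type, and probe ILMN_1216057 read 5.49, 5.35 and 5.27 in mutants and 4.93, 5.09 and 6.02 in wild type. Their differences were -0.0032 (SE 0.34) and 0.03 (SE 0.32). Without wild-type array 3 all 3 probes had a positive difference, at 0.19, 0.34 and 0.39 in the order given, with limma adjusted p of 0.542 to 0.790. All 3 were positive within bo20 (0.19, 0.52 and 0.41) and negative within bo12 (-0.63, -1.06 and -0.74).

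Il6st encodes gp130, the signalling chain shared by the whole interleukin-6 family. Probe ILMN_2608184 read 7.14, 7.36 and 7.54 in mutants and 7.59, 7.10 and 8.15 in wild type, so that wild-type arrays held both the lowest and the highest value. The difference was -0.27 (SE 0.30, limma adjusted p = 0.802). Leaving out wild-type array 3 gave 0.0013 (SE 0.22, adjusted p = 1.000). The 95% interval with all arrays was 0.505-fold to 1.37-fold. A second probe of the gene, ILMN_2452075, was not above background on any array.

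Osmr encodes the chain that pairs with gp130 to bind oncostatin M. Its detected probe, ILMN_2623280, read 4.84, 5.72 and 5.56 in mutants and 5.30, 5.44 and 5.56 in wild type. Mutants held both extremes, and mutant array 1, the lowest, had a detection p of 0.0321. The difference was -0.06 (SE 0.28, limma adjusted p = 0.945), and -0.0034 without wild-type array 3. The remaining 2 Osmr probes were not above background on any array.

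Il13ra1 encodes the chain that binds interleukin-13 and joins IL4RA in the receptor found on keratinocytes. Probe ILMN_2668696 read 8.94, 8.61 and 8.69 in mutants and 8.00, 8.41 and 9.08 in wild type. All 3 mutant values lay above wild-type arrays 1 and 2 and below wild-type array 3. The difference was 0.25 (SE 0.31, limma adjusted p = 0.812), 1.19-fold with a 95% interval of 0.717 to 1.97. It was 0.53 (SE 0.21), 1.44-fold, without wild-type array 3, with an unadjusted p of 0.0365 in limma and an adjusted p of 0.470. Without wild-type array 1 it was 0.00040. It stood at 0.57 within bo20 and -0.40 within bo12. Its partner Il4ra, the chain that both interleukin-4 and interleukin-13 need for signalling through this receptor, has 1 probe (ILMN_2738433), which was not above background on any array. The Il4ra detection p was 0.426 to 0.812 on mutant arrays and 0.924 to 0.990 on wild-type arrays, so no fold is given.

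Il20ra encodes the chain that, with the product of Il20rb, binds interleukin-19, interleukin-20 and interleukin-24. It had the lowest difference among the 7 tested genes of the set. Probe ILMN_1246596 read 4.50, 4.75 and 4.92 in mutants and 5.68, 4.76 and 5.99 in wild type. Mutant array 3 lay above wild-type array 2, so the groups overlapped, and in these normalized values wild-type arrays 1 and 3 were higher than the rest. The difference was -0.75 (SE 0.35, limma unadjusted p = 0.0655, adjusted p = 0.791), with a 95% interval of 0.336-fold to 1.04-fold. All values lay near the detection limit, and the difference was -0.29 without background correction and -0.41 with offset 50. In raw intensity mutant array 2 was the highest, at 108.6, beside 103.8 and 101.2 on wild-type arrays 1 and 3. The probe was detected on 1 mutant array and 2 wild-type arrays, which is the least the filter accepts, and without wild-type array 3 it did not pass the filter. It stood at -0.59 within bo20 and -1.07 within bo12. The other 2 Il20ra probes were not above background on any array.

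Il22ra1 encodes the chain that gives epithelial cells their response to interleukin-22. Its probe, ILMN_2975455, was not above background on any array at the limit used. The detection p was 0.0577, 0.103 and 0.0812 in mutants and 0.900, 0.127 and 0.0844 in wild type, which is just above the limit on mutant array 1 and far above it on wild-type array 1.

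Socs3 encodes an inhibitor that blocks Janus kinases docked at gp130, and its transcription is a standard readout of STAT3 activity. Probe ILMN_2618176 was detected on all 6 arrays and read 7.26, 7.31 and 7.81 in mutants and 7.27, 7.20 and 8.02 in wild type. In both groups array 3, the one titled bo12, was the highest, and the other 4 values lay within 7.20 to 7.31. The difference was -0.04 (SE 0.30, limma adjusted p = 0.967), 0.973-fold with a 95% interval of 0.597 to 1.59. It was 0.22 (SE 0.22, adjusted p = 0.815) without wild-type array 3, 0.05 within bo20 and -0.21 within bo12. Socs1 encodes the inhibitor induced mainly by interferons and interleukin-4. Its probe, ILMN_2634796, was detected on 0 of 3 mutant arrays and 1 of 3 wild-type arrays, with a detection p of 0.159 to 0.486 in mutants and 0.0459 to 0.159 in wild type.

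The upstream sequences of 2 genes are shown because they alone among the 10 hold a STAT-type motif in the 250 bases before the start: Socs3, the feedback gene just described, and Il20ra, the gene of the set with the lowest difference. They are from RefSeq, build GRCm38.p6, 5′ to 3′ on the gene's strand, and all 10 genes had an entry. Capitals mark the match to TTCNNNGAA, the palindrome bound by STAT3 and other STAT dimers, in Socs3 (chr11:117969367-117969616, minus strand), and to TTCNNNNGAA, the wider palindrome preferred by STAT6, in Il20ra (chr10:19712337-19712586, plus strand).
Socs3: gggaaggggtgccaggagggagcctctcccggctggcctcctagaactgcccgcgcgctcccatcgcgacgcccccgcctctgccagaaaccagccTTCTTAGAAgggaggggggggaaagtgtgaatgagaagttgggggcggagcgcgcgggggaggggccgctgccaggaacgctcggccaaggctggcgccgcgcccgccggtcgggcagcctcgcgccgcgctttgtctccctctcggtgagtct
Il20ra: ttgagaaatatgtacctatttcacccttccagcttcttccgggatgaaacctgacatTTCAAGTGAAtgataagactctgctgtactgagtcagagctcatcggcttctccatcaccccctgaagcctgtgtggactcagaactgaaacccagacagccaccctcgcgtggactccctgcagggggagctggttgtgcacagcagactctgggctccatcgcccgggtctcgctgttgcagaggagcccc
The Socs3 match begins 154 bases before the start and the Il20ra match 193 bases before it. Each motif is its own reverse complement, so both strands were covered, and the 2 do not overlap in these windows. TTCNNNGAA occurred in 7.02% of 32851 RefSeq windows of this length and TTCNNNNGAA in 5.85%. A match describes the letters only, and the other 8 windows hold neither string.

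**Figure D3:**
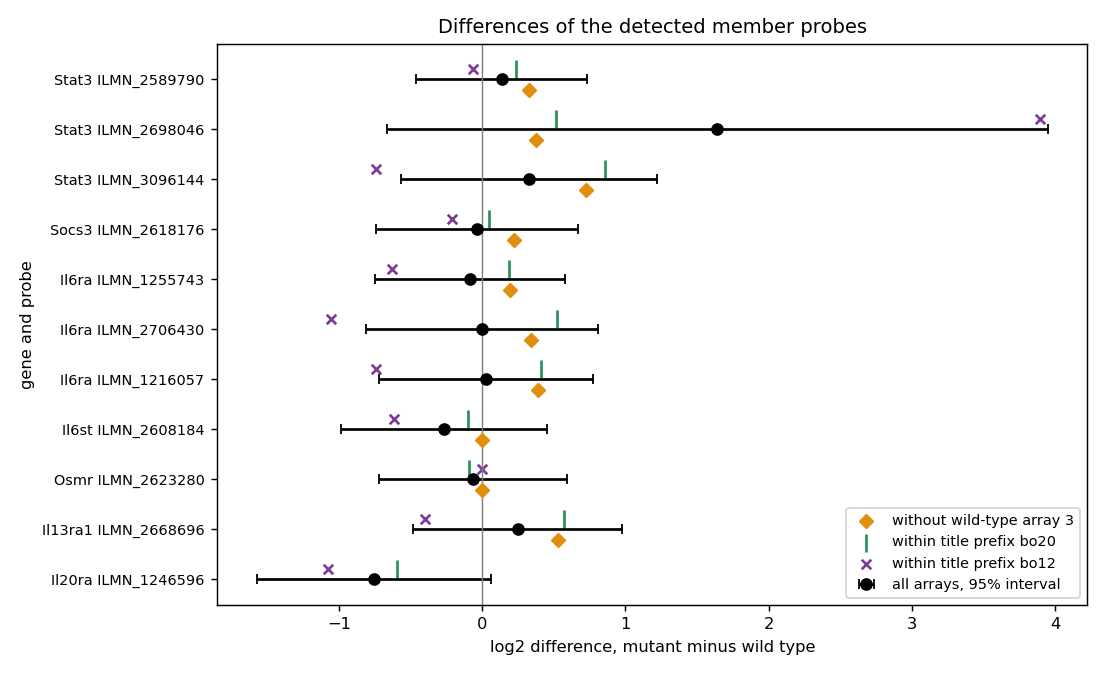
Log2 difference, mutant minus wild type, for the 11 detected probes. Black points with bars are the limma estimates over all arrays with 95% intervals, diamonds leave out wild-type array 3, ticks and crosses are the differences within the title prefixes bo20 and bo12. Every interval includes 0, and Il20ra, at -0.75, has no value without wild-type array 3.

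On wild-type array 3, 10 of the 11 probes lay above the median of the other 5, and the exception was Stat3 probe ILMN_2698046. Over all detected probes 61.8% lay above it, with a median deviation of 0.29. The deviations of Socs3, Il6st and the Il6ra probes there were 0.74 to 0.97. Before normalization the groups lay further apart. In raw intensity, all mutant arrays exceeded all wild-type arrays for 7 of the 11 probes, from Stat3, Socs3, Il6ra, Il6st and Il13ra1. The same was true of 35.7% of all detected probes, while 0.142% lay apart in the other direction. Scaled to a common median in place of quantile normalization, 10 of the 11 differences were above 0, but so were 88.7% of all probes, whose median moved to 0.42. The median of the 11 probes was then 0.53, beside that shift of 0.42, and 0 of the 11 passed.

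Ligands of these receptors were mostly below the limit. Of 15 on the list, 4 were detected on at least 3 arrays: Osm, Ctf1, Il4 and Il24. Il6, Il22, Il10, Il27, Clcf1 and Cntf were detected on no array, and Il11, Lif, Il13, Il19 and Il20 on 1 or 2. All 4 detected ligands had a difference below 0, their median was -0.43 beside -0.06 over all 11354 detected genes, and 0 passed. The difference for Il4, the type 2 cytokine of T cells and mast cells, was -0.72 (SE 0.36), with values of 6.64, 6.63 and 6.16 in mutants and 7.18, 6.55 and 7.85 in wild type, and wild-type array 2 lay below mutant arrays 1 and 2. Osm, which encodes oncostatin M, a cytokine of activated myeloid and T cells, read 5.26, 5.43 and 5.33 in mutants and 5.48, 5.64 and 6.36 in wild type. The Osm groups did not overlap, as was true of 7.68% of all detected probes in that direction, and its difference was -0.49 (SE 0.28, limma adjusted p = 0.791). Leaving out wild-type array 3 gave -0.24 for Osm, -0.39 for Il4, -0.12 for Ctf1, a heart and nerve cytokine of the interleukin-6 family, and -0.32 for Il24, an epidermal cytokine. With all arrays Ctf1 and Il24 stood at -0.37 and -0.01.

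Among 14 other receptor chains, 7 were detected, 5 with a difference above 0 and 2 below (median 0.26), and 0 passed. Il20rb, the obligate partner of the Il20ra product, read 10.37, 10.29 and 10.08 in mutants and 10.59, 10.64 and 11.10 in wild type. The Il20rb groups did not overlap, as was true of 7.68% of all detected probes in that direction. Its difference was -0.53 (SE 0.23, limma adjusted p = 0.791), and -0.37 without wild-type array 3. Il31ra, which pairs with the Osmr product to bind the itch cytokine interleukin-31, read 5.52, 5.26 and 5.58 in mutants and 4.98, 4.62 and 5.25 in wild type, also without overlap. Its difference was 0.50 (SE 0.24, adjusted p = 0.791), and 0.71 without that array. Non-overlap in that direction was found for 5.63% of all detected probes. The differences for Lifr, the receptor chain of leukaemia inhibitory factor, and Il10ra, the interleukin-10 receptor of leukocytes, were -0.33 and 0.15. Those of Il10rb, the chain shared by the interleukin-10 and interleukin-22 receptors, Il22ra2, which encodes a soluble trap for interleukin-22, and Il27ra were 0.44, 0.26 and 0.32. Without wild-type array 3, Lifr, Il10ra, Il10rb, Il22ra2 and Il27ra stood at -0.29, 0.45, -0.17, 0.40 and 0.50.

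All 4 Janus kinase genes were detected and 0 passed. Jak1, the kinase that gp130 depends on most, read 6.22, 6.26 and 6.56 in mutants and 6.76, 6.80 and 7.75 in wild type. The mutant values all lay below the wild-type values, as was true of 7.68% of all detected probes. The difference was -0.76 (SE 0.32, limma unadjusted p = 0.0468, adjusted p = 0.791), beside 3.39% of all detected probes at an unadjusted p under 0.05 in that direction. It was -0.43 (unadjusted p = 0.0506) without wild-type array 3. The differences for Jak2, Tyk2 and Jak3 were 0.59 (SE 0.32), 0.28 (SE 0.22) and 0.22 (SE 0.30), and 0.33, 0.19 and 0.41 without wild-type array 3. The Tyk2 values were 7.74, 7.66 and 8.06 in mutants and 7.64, 7.60 and 7.36 in wild type. They did not overlap, as was true of 5.63% of all detected probes in that direction.

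Of the other STAT genes, Stat2, Stat5a and Stat6 were detected. Stat6, the factor downstream of IL4RA and IL13RA1, read 6.67, 6.51 and 6.76 in mutants and 5.80, 6.19 and 6.78 in wild type, with a difference of 0.39 (SE 0.29). Without wild-type array 3 it was 0.66 (unadjusted p = 0.0120, limma adjusted p = 0.354). Stat2, a transducer of interferon signals, and Stat5a differed by -0.66 (SE 0.35) and -0.18 (SE 0.30), and by -0.33 and 0.11 without that array. With all arrays 0 of the 3 passed.

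The SOCS family beyond Socs1 and Socs3 had 5 of 6 genes detected, 3 above 0 and 2 below, with 0 passing. Socs2, the inhibitor of growth hormone signalling, read 7.87, 8.04 and 8.19 in mutants and 7.86, 7.89 and 5.62 in wild type. Socs5 read 7.39, 7.13 and 7.13 in mutants and 6.99, 7.27 and 5.02 in wild type. For both, wild-type array 3 was the lowest array, and the differences of 0.91 and 0.79 were 0.16 and 0.09 without it. Cish, which encodes a STAT5-induced member of the family, differed by -0.46 (SE 0.39), Socs4 by -0.06 (SE 0.29) and Socs6 by 0.41 (SE 0.24). These were -0.09, 0.22 and 0.24 without wild-type array 3. Among 8 detected of 10 other inhibitors, which comprise the PIAS proteins and tyrosine phosphatases, the median was 0.04, 5 were above 0 and 3 below, and 0 passed. The differences for Pias1, Pias2, Pias3 and Pias4 were 0.04, -0.45, -0.37 and 0.14, and those for Ptpn1, Ptpn2, Ptpn6 and Ptpn11 were 0.45, 0.04, -0.04 and 0.74. Without wild-type array 3 the PIAS genes stood in the same order at 0.24, -0.13, -0.05 and 0.63, and Ptpn1, Ptpn2 and Ptpn6 at -0.24, 0.25 and 0.27. Ptpn11, which encodes the phosphatase SHP2 that docks at the same gp130 site as SOCS3, stood at -0.04 without wild-type array 3.

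**Figure D4:**
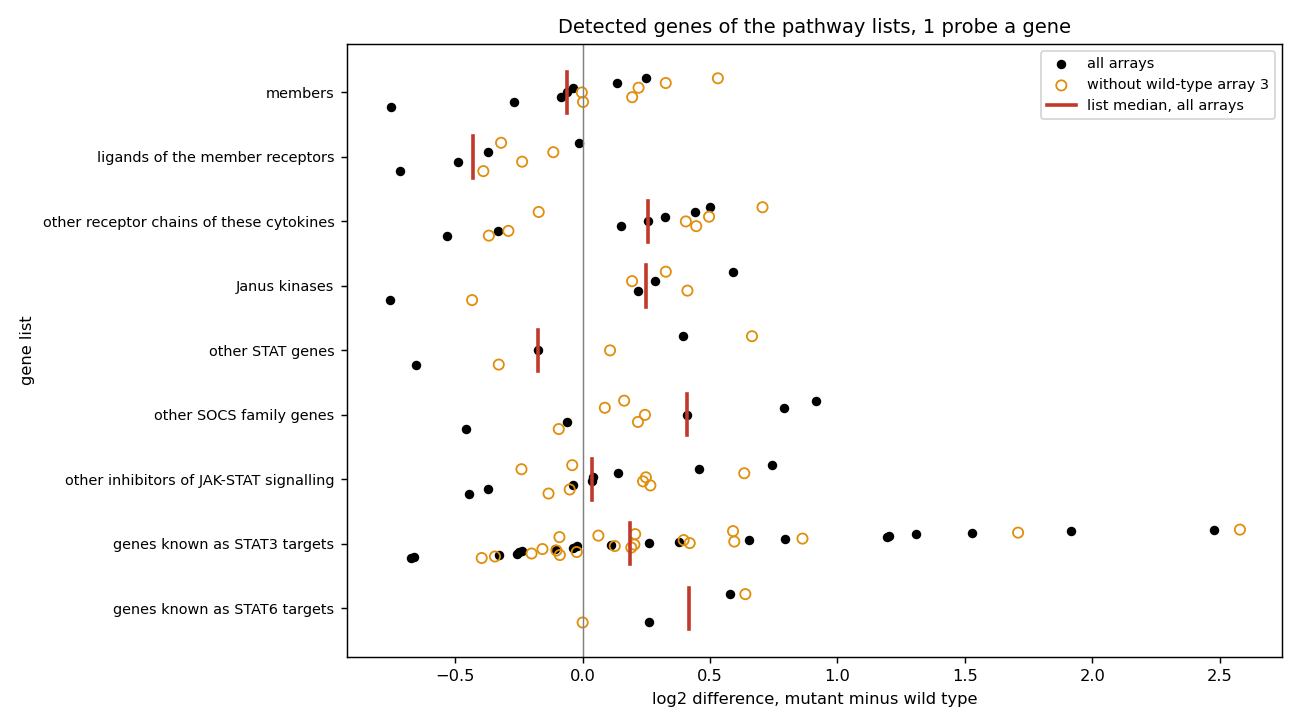
Log2 difference, mutant minus wild type, of each detected gene in the 10-gene set (labelled members) and in the pathway lists, 1 probe a gene. Filled points use all arrays, open circles leave out wild-type array 3, and red bars are list medians over all arrays. The points furthest to the right among the STAT3 targets include Saa3 at 2.48, Fos at 1.92 and Lcn2 at 1.53. Fos, named after its value was seen, stood at 0.59 without wild-type array 3.

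Of 22 genes known as STAT3 targets, 20 were detected, 11 with a difference above 0 and 9 below, with a median of 0.19 beside -0.06 over all detected genes. With all arrays 0 passed, and 3 (Saa3, Lcn2 and Bcl3) had an unadjusted p under 0.05 in limma, all higher, beside 2.47% of all detected probes in that direction. Saa3, an acute-phase protein, read 7.90, 8.01 and 6.97 in mutants and 4.94, 5.28 and 5.23 in wild type, a difference of 2.48 (SE 0.32, adjusted p = 0.101), and it passed without wild-type array 3 (2.58, adjusted p = 0.0463). Lcn2 stood on the target list but is named here after its value was seen. It encodes an iron-binding antimicrobial protein and read 6.94, 6.40 and 7.60 in mutants and 5.78, 4.87 and 5.70 in wild type (1.53, SE 0.39, adjusted p = 0.473). Bcl3, a nuclear partner of NF-kappa-B, read 5.55, 5.56 and 6.27 in mutants and 4.62, 5.35 and 5.02 in wild type (0.79, SE 0.30, adjusted p = 0.791). In each of the 3 genes every mutant value lay above every wild-type value, beside 5.63% of all detected probes. The groups of 1 target lay apart in the other direction, beside 7.68%: Fosl2, an AP-1 factor named after its value was seen, read 9.87, 10.05 and 10.22 in mutants and 10.48, 10.30 and 11.33 in wild type (-0.66, SE 0.31, adjusted p = 0.791). The target list was drawn up with earlier results of these data known, so its counts are a description.

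For the 7 other targets named in the text, the values of the groups overlapped. The differences for Junb and Cebpb, transcription factors of the acute response, were 0.26 (SE 0.25) and 0.11 (SE 0.20), and 0.42 and 0.20 without wild-type array 3. Cebpd, a related factor, read 8.32, 8.17 and 7.85 in mutants and 8.00, 8.42 and 4.34 in wild type, with a difference of 1.195 that was -0.09 without wild-type array 3. Pim1, a survival kinase, Myc, a growth regulator, Timp1, a metalloproteinase inhibitor, and Lrg1, an acute-phase glycoprotein, gave -0.26, -0.25, -0.02 and -0.24, and without wild-type array 3 -0.20, -0.02, 0.13 and -0.10. Only 2 of 12 STAT6 targets were detected, Arg1 (arginase, 0.58, SE 0.29) and Bcl6 (a transcriptional repressor, 0.26, SE 0.37), and 0 passed. Without that array they stood at 0.64 and -0.00017. The chemokine genes Ccl17 and Ccl22 were detected on no array.

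Markers of myeloid cells, which can supply Osm, Saa3 and several of these receptors, were measured beside them. Of 17 on the list of Langerhans cells and macrophages 14 were detected, and all 14 had a difference above 0, beside 46.1% of all detected probes. Their median was 0.57 beside -0.06 over all detected genes, from 0.07 for C1qa to 1.79 for Lyz2. Without wild-type array 3 their median was 0.39. The groups of 5 did not overlap, all higher, beside 5.63% of all detected probes. With all arrays 0 passed in limma, and without wild-type array 3 Lyz2, a lysozyme, passed (1.91, adjusted p = 0.0329), beside 0.275% of all probes. Their summed normalized intensity was 12241 to 14452 in mutants and 6944 to 9874 in wild type. The pan-leukocyte marker Ptprc, the Langerhans marker Cd207 and the integrin Itgam were detected on no array. All 8 skeletal muscle markers (median 0.45) and all 4 detected erythroid markers (median 0.11) also had a difference above 0. Without wild-type array 3 those medians were 0.07 and -0.02. Above 0 were also 7 of 10 dermal fibroblast markers, 4 of 11 detected keratinocyte markers and 1 of 7 detected hair follicle markers. Of 10 neutrophil markers 4 were detected: S100a8 and S100a9, which keratinocytes also make, Camp and Retnlg. The groups did not overlap for S100a8, S100a9 and Retnlg, all higher, beside the same 5.63% of all detected probes, while Camp differed by 0.03 and was highest on wild-type array 3. Among these 4, 0 passed with all arrays, and S100a8 passed without wild-type array 3 (2.18, adjusted p = 0.0320). Their sum was 3229 to 4841 in mutants and 374 to 1128 in wild type. On the mutant arrays this sum came almost wholly from S100a8 and S100a9, which are not made by neutrophils alone. On mutant array 1 they read 11.85 and 10.02, beside 5.81 for Camp and 5.72 for Retnlg. Csf3r, Ngp and Cxcr2 were detected on no array. The part of myeloid cells in the values of Saa3, Lcn2, Osm or the receptors was not tested.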

How the data were processed

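RNA of 3 mutant and 3 wild-type epidermal peels (taken off after 1 hour in 5 mM EDTA at 37 °C) was hybridised to Illumina bead arrays. The deposited intensity values are bead summaries without background subtraction or normalization, per the file headers, and BeadStudio is the tool named (no version) per the submitters' processing notes. The deposited fraction beside each intensity was read as 1 minus the detection p, since bright probes stand at 1. The authors' deposited log2 table was found to hold log2 intensity minus each array's 75th percentile and minus each probe's median: 100% of values were recovered within 0.001.

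Intensities were corrected with normexp (nec, offset 16, limma 3.58.1, R 4.3.3) and quantile-normalized. Probes detected on 3 or more arrays were tested with lmFit and eBayes, two-sided, with Benjamini-Hochberg adjustment over all 18358. Precision is limited by 3 arrays a group. Probe symbols were updated through GRCm38.p6 gene tables, used for names only. In lists the probe with the highest mean stood for a gene. Named were all probes of the 10 genes, every detected gene of the smaller pathway lists and a fixed choice of targets. Lcn2, Fos and Fosl2 were named after their values were seen. The 10 genes, the lists and the fixed choice were drawn up with earlier results of these data known.

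Same-numbered arrays deviated together from their group means (correlations 0.270, 0.462 and 0.538 across probes). Arrays of unlike number were not compared, and same-numbered arrays also share a title prefix, so these values cannot show pairing. The main fit was unpaired, and a fit with the replicate as a block was an alternative. The other alternatives were the background correction, scaling, the authors' table, detection filters, variance model, array weights, the title prefix and leaving out each array.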

Additional observations from a re-analysis of the deposited data

How the results depend on the processing

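Over 16 alternative settings, 0 probes of the 10 genes passed in any. The lowest adjusted p was 0.148, for Stat3 probe ILMN_3096144 with array weights. The number of all probes that passed was 0, and became 1 without background correction, 6 in the authors' table, 129 with array weights and 48 with the title prefix as a factor. It was 0 to 49 when 1 array was left out, with 49 only without wild-type array 3. With the replicate block 0 probes passed, and the block changed no call. Of 172 alternative values of single probes, 147 kept their sign and 25 did not. With median scaling, which moved the median of all probes to 0.42, the differences of Socs3, Il6st and Osmr became 0.57, 0.35 and 0.30, and those of Il6ra probes ILMN_1255743 and ILMN_2706430 became 0.53 and 0.49. In the authors' table Socs3 stood at 0.13 and Il6ra probes ILMN_1255743 and ILMN_1216057 at 0.067 and -0.13. With array weights Socs3 was 0.074 and the first 2 Il6ra probes 0.15 and 0.40. Il6ra probe ILMN_1216057 was -0.0066 without background correction and -0.0025 with offset 50. When 1 array was left out, the lowest and highest values were -0.012 and 0.33 for Stat3 probe ILMN_2589790, -0.21 and 0.22 for Socs3, -0.23 and 0.19, -0.17 and 0.34, and -0.18 and 0.39 for Il6ra probes ILMN_1255743, ILMN_2706430 and ILMN_1216057, -0.52 and 0.0013 for Il6st, and -0.22 and 0.20 for Osmr. The cause was not tested. Stat3 probe ILMN_3096144 ran from 0.0042 to 0.72 and Il13ra1 from 0.00040 to 0.53, each lowest without wild-type array 1 and highest without wild-type array 3. Stat3 probe ILMN_2698046 kept its sign throughout, at 0.38 without wild-type array 3 to 2.38 without wild-type array 2. List medians also changed sign in some settings: for example, that of the other receptor chains was -0.12 in the authors' table, and those of the ligands and of the other STAT genes were 0.09 and 0.44 with median scaling. Signal near background limits Il20ra, Osmr and Il6ra probe ILMN_1216057. Among the list genes it also limits Lifr and Pim1, each detected on 1 of 3 mutant arrays. The same holds for Il31ra, Il22ra2, Jak3, Bcl3 and Arg1, each detected on 2 of 3 wild-type arrays.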
